A study of Homo sapiens with 6 samples.

Results

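The genes described here carry glucose into the cell and break it down. They were the rows of the count table for the glucose transporters SLC2A1 and SLC2A3, the glycolytic enzymes HK2, PFKP, ALDOA, PGK1, ENO1, PKM and LDHA, and PDK1, a kinase that holds back the entry of pyruvate into the citric acid cycle. The rule named 10 genes by symbol as a hypoxia-responsive set. Of these, 9 had a row among the 16199 rows of the table, and LDHA was not analysed here. The study engineered a cancer hotspot substitution of Dicer, S1344L, with CRISPR-Cas9 into the established human embryonic stem cell line H1. Dicer, an RNase III enzyme, releases microRNAs from their precursors. The groups were cells with S1344L in the homozygous state (written pm/pm in the protocol), cells labelled hemizygous for S1344L (pm/fs) and wild-type cells, with 2 libraries each. All 6 libraries came from cells kept 10 days without doxycycline and irradiated 2 times with 254 nm light at 150 mJ/cm2, and 2 dishes of 15 cm went into each. RNA was then recovered with an antibody against Ago2, the Argonaute protein that carries microRNAs to their targets, by individual-nucleotide crosslinking and immunoprecipitation (iCLIP). The labels do not say how many clones stand behind a genotype, or whether its libraries are separate cultures. P-values therefore measure only how these libraries differ, and that spread may be technical.

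Glycolysis turns glucose into pyruvate in the cytosol, and cells with little oxygen rely on it because it makes ATP without the respiratory chain. Under low oxygen the transcription factor HIF-1 (HIF1A with its partner ARNT) accumulates and raises transcription of glucose transporters, of most glycolytic enzymes and of PDK1. Primed human pluripotent cells are known for a high glycolytic rate even with oxygen present. In bulk libraries such as these, fewer cells of a type and less RNA per cell cannot be told apart. The count of a gene in an Ago2 iCLIP library can follow its transcript level or the Ago2 bound to it, and the table does not separate these.

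The 6 libraries held 38.2 M to 52.9 M counts. Values are given as CPM, a gene's count over its library's total on a common scale, with a TMM factor (trimmed mean of M values) that corrects for differences in library composition. The smallest count of any of the 9 genes in a library was 561 and the largest 83270. Levels were not set against each other between genes, because gene lengths were not used. DICER1 itself had 129 and 118 CPM in homozygous, 118 and 96.4 CPM in hemizygous and 169 and 126 CPM in wild-type libraries, and a substitution need not alter that count. Both hemizygous values lay below both wild-type values, as in 9.21% of all genes. What the fs allele of the hemizygous cells does to the count was not tested. AGO2 had 268 and 199 CPM in homozygous, 277 and 231 CPM in hemizygous and 218 and 222 CPM in wild-type libraries. The hemizygous and wild-type libraries lay apart by replicate number along the first principal component of log2 CPM, which held 59.1% of the variance, with homozygous replicate 1 between them. Homozygous replicate 1 stood apart from the other 5 libraries on the second, which held 15.1%, and the comparisons that rest on it are given with and without it. All 10 genes of a primed pluripotency list had a row, as did 6 of 8 neuroectoderm, 2 of 8 mesendoderm and 7 of 10 stromal genes. The summed level of the pluripotency genes was 7683 CPM in homozygous replicate 1 and 6797 to 8029 CPM in the other 5 libraries. LIN28A and DNMT3B made up 2473 and 2214 CPM of the former, so the sum says little of the other genes. Relative to each gene's own mean, the median log2 level of the list was -0.00094 in homozygous replicate 1. It was between -0.13 and 0.082 in the other 5 libraries.

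Because the set was named as hypoxia-responsive, its promoters were searched for the core of the HIF binding site, written ACGTG or GCGTG, on both strands. The windows were the 250 bases before each RefSeq start site (assembly GRCh38.p14), and overlapping matches, as in CACGTG, were counted separately. SLC2A3 had no window. Of the 8 measured genes with a window, 6 held a match in at least 1 of their windows, and the share among all 27305 genes with a window was 47.4%. Among 20 other hypoxia-responsive genes with a window, 18 held one. A match is a description of the letters and not a bound site, and the genes' windows numbered between 1 and 4. The windows of 3 genes with matches and of SLC2A1, which had none, are shown. SLC2A1, HK2 and PGK1 are 3 of the 4 among the 9 genes whose level in 1 library stood at least 1.5-fold above every other, as given below, and ENO1 is shown as a gene with matches that was not among them. Each is written from 5′ to 3′ on the gene's strand, ends at the base before the start site, and has the matches in capitals.
PGK1, chrX:78103998-78104247, plus strand: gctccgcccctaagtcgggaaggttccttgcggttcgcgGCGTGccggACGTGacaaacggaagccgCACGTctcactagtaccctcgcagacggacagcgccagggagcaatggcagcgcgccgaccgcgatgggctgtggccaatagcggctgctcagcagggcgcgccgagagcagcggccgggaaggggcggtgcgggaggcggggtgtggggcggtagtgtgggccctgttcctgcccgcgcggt
HK2, chr2:74833877-74834126, plus strand: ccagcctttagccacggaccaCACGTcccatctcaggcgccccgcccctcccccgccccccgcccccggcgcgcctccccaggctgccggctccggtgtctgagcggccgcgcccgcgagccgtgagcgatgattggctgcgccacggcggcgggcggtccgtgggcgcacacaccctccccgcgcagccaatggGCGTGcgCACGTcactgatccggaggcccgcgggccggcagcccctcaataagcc
ENO1, chr1:8878687-8878936, minus strand: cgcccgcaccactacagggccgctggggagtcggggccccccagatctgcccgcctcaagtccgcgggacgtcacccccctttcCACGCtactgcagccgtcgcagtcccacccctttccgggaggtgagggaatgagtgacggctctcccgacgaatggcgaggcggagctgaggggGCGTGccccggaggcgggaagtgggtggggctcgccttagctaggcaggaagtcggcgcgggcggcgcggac
SLC2A1, chr1:42958869-42959118, minus strand: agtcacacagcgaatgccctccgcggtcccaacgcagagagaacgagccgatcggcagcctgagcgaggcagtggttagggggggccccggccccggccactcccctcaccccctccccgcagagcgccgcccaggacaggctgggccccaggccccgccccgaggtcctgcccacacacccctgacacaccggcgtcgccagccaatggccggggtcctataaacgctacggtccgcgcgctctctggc
The PGK1 window held 3 matches, the HK2 window shown also 3, and the ENO1 window 2. HK2 has a second annotated start, whose window, not shown, held 6.

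Glucose enters these cells through facilitative transporters, of which SLC2A1 (GLUT1) is the widespread form and SLC2A3 (GLUT3) a high-affinity form. SLC2A1 had 340.5 and 105 CPM in the homozygous libraries (replicate 1, then replicate 2), 169 and 123 CPM in the hemizygous and 164 and 115 CPM in the wild-type. Homozygous replicate 1 was the highest of the 6 libraries and homozygous replicate 2 the lowest, so that the homozygous values enclosed all others. The means were 223 ± 167 CPM in homozygous, 146 ± 32.9 CPM in hemizygous and 139 ± 35.1 CPM in wild-type libraries (SD, n = 2 each). SLC2A3 had 992 and 711 CPM in homozygous, 883 and 769.5 CPM in hemizygous and 873 and 767 CPM in wild-type libraries. The order of its libraries was the same at the ends, with homozygous replicate 1 highest and homozygous replicate 2 lowest, over a range of 1.40-fold against 3.26-fold for SLC2A1. In both genes replicate 1 was above replicate 2 in all 3 genotypes. SLC2A14, a close copy of SLC2A3 whose reads the counting could have split, had 43.1 and 35.8 CPM in homozygous, 37.6 and 24.4 CPM in hemizygous and 33.7 and 29.0 CPM in wild-type libraries.

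HK2 is the inducible hexokinase that phosphorylates glucose on entry. It had 242 and 97.0 CPM in the homozygous libraries (replicate 1, then replicate 2), 111 and 110.2 CPM in the hemizygous and 104 and 107 CPM in the wild-type. The 5 libraries other than homozygous replicate 1 lay at 97.0 to 111 CPM, and homozygous replicate 1 was 2.19-fold above the highest of them. PFKP, the platelet form of phosphofructokinase, which makes the committed step of glycolysis, had 144 and 128 CPM in homozygous, 123 and 131 CPM in hemizygous and 117 and 149 CPM in wild-type libraries. It was the exception among the 9 genes in that its highest value was in wild-type replicate 2. ALDOA, the aldolase that splits fructose bisphosphate, had 28.6 and 15.3 CPM in homozygous, 14.6 and 17.8 CPM in hemizygous and 16.2 and 18.8 CPM in wild-type libraries. Homozygous replicate 1 was 1.52-fold above the next highest library, and the other 5 lay at 14.6 to 18.8 CPM. The locus of ALDOA overlaps another annotated gene, and the use of strand in the counting is not given in the sources used here.

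PGK1, ENO1 and PKM act in the lower pathway, which returns ATP to the cell, and each was highest in homozygous replicate 1. PGK1, the phosphoglycerate kinase that makes the first of this ATP, had 896 and 418 CPM in the homozygous libraries (replicate 1, then replicate 2), 434 and 457 CPM in the hemizygous and 431 and 433 CPM in the wild-type. The 5 lower libraries stood within 1.09-fold of each other, the narrowest such spread among the 9 genes, and homozygous replicate 1 was 1.96-fold above the highest of them. ENO1, the enolase that makes phosphoenolpyruvate, had 1835 and 1151 CPM in homozygous, 1162 and 1327 CPM in hemizygous and 1182 and 1325 CPM in wild-type libraries. Its homozygous libraries were again the highest and the lowest of the 6, with replicate 1 at 1.38-fold of the next library. PKM, the pyruvate kinase gene whose M1 and M2 forms a count per gene does not separate, had 1392 and 1036 CPM in homozygous, 876 and 1109.7 CPM in hemizygous and 889.9 and 1127 CPM in wild-type libraries. Homozygous replicate 1 was highest, at 1.24-fold of the next, and the lowest value was in hemizygous replicate 1. RefSeq lists pseudogenes of PGK1, ENO1 and PKM, none of which had a row.

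PDK1 phosphorylates pyruvate dehydrogenase and so keeps pyruvate out of the mitochondrial cycle. It had 90.8 and 35.7 CPM in the homozygous libraries (replicate 1, then replicate 2), 50.6 and 39.9 CPM in the hemizygous and 66.1 and 44.8 CPM in the wild-type. Homozygous replicate 1 was the highest library and homozygous replicate 2 the lowest, and replicate 1 was above replicate 2 in each genotype. The means were 63.3 ± 39.0 CPM in homozygous, 45.3 ± 7.52 CPM in hemizygous and 55.5 ± 15.0 CPM in wild-type libraries (SD, n = 2 each). Its locus overlaps the antisense gene PDK1-AS1, which has a row of its own, and without strand their reads cannot be told apart.

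**Figure D1:**
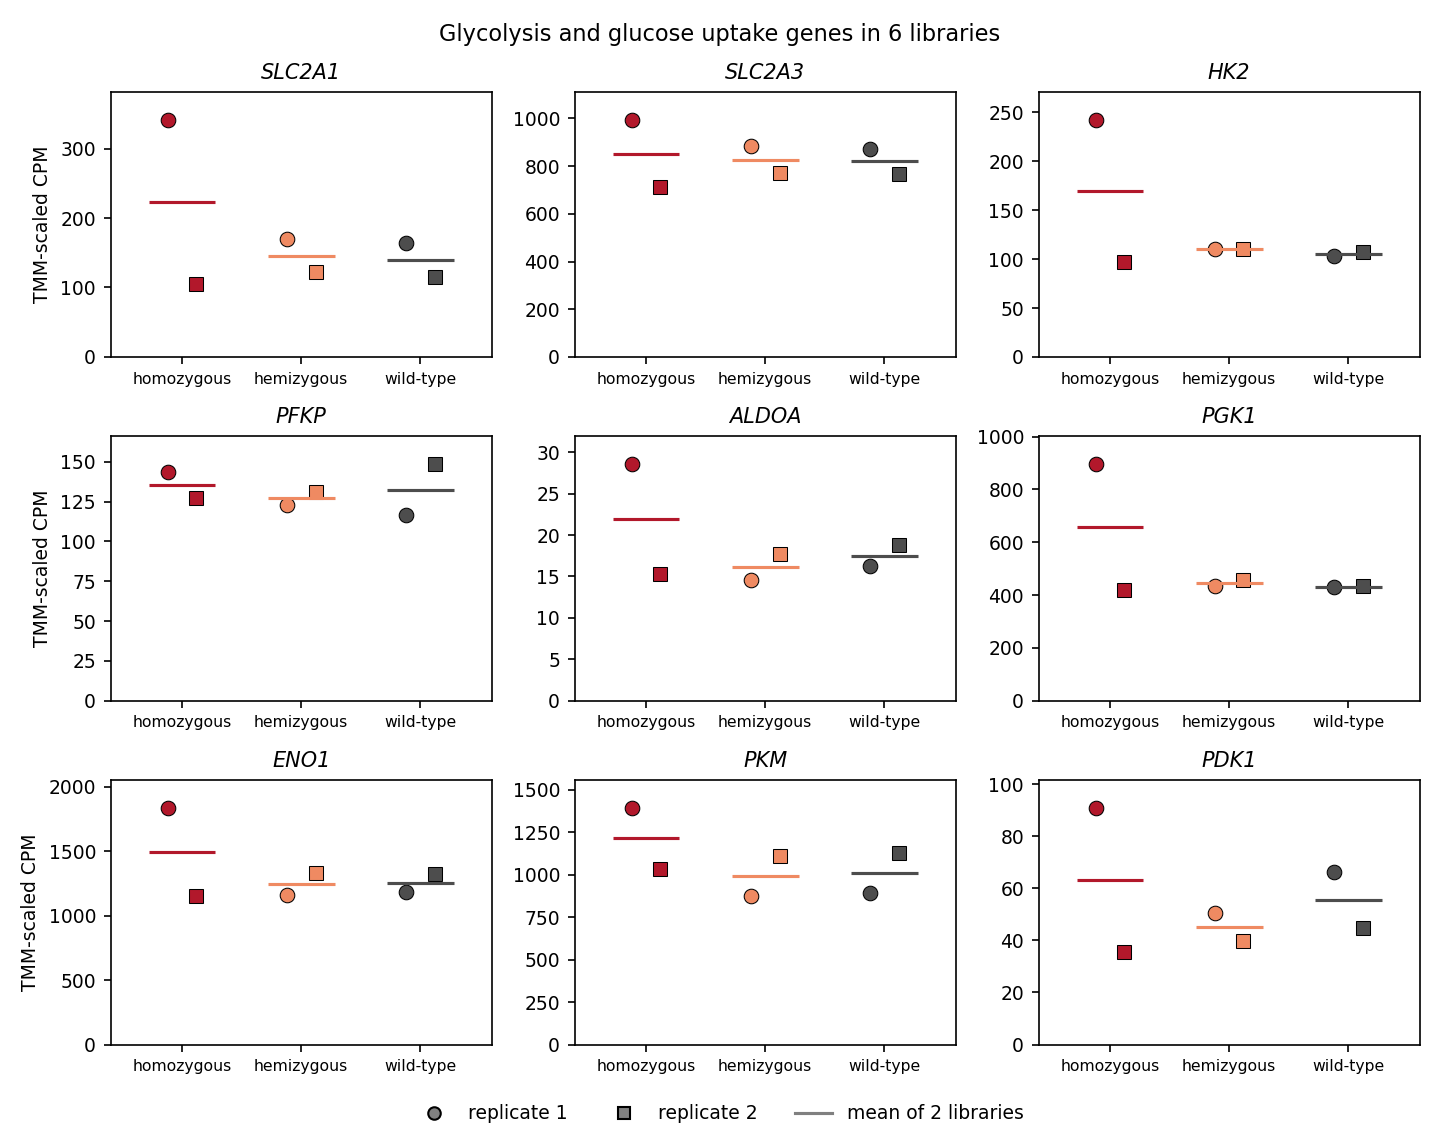
TMM-scaled CPM (y axes, from 0) of the 9 measured glycolysis and glucose uptake genes in homozygous, hemizygous and wild-type libraries, with circles for replicate 1, squares for replicate 2 and lines at the mean of 2 libraries. In 8 of 9 panels homozygous replicate 1 is the highest point, as for HK2 at 242 CPM, and in the PFKP panel wild-type replicate 2 is, at 149 CPM.

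The shared feature of the genes was thus the level of 1 library. Homozygous replicate 1 was the highest of the 6 for 8 of 9 genes, where it was the highest for 14.7% of all 16199 genes. It was at least 1.5-fold above each of the other 5 libraries for 4 of 9 genes (SLC2A1, HK2, ALDOA and PGK1), against 0.302% of all genes, which were 49. With upper-quartile or library-size scaling the second count was 3. The 9 genes took 0.586% of the counts in homozygous replicate 1, 0.380% in homozygous replicate 2, 0.369% and 0.417% in the hemizygous and 0.377% and 0.418% in the wild-type libraries. Relative to each gene's own mean, their median log2 level was 0.66 in homozygous replicate 1 and between -0.23 and -0.10 in the other 5 libraries. With 1 library involved, no test applies to this pattern, and the genes were chosen with earlier results of these data known. Its cause was not tested.

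Other genes known to respond to low oxygen were high in the same library. Of 23 with a row, homozygous replicate 1 was the highest for 17, against 14.7% of all genes. It was at least 1.5-fold above every other library for 10, against 0.302% of all genes. This list too was chosen with earlier results of these data known. Among the examples, which were chosen after their values were seen, DDIT4, a brake on mTORC1 signalling, had 149 and 35.8 CPM in homozygous, 34.7 and 45.7 CPM in hemizygous and 43.9 and 42.0 CPM in wild-type libraries. BNIP3, a mitophagy receptor, had 257 and 105 CPM in homozygous, 55.9 and 120.1 CPM in hemizygous and 60.8 and 90.3 CPM in wild-type libraries. KDM3A, a histone demethylase, had 81.5 and 37.5 CPM in homozygous, 44.2 and 39.2 CPM in hemizygous and 41.6 and 38.8 CPM in wild-type libraries. In these 3 genes the homozygous replicate 1 value was above the other 5, while the homozygous replicate 2 value was far below it. P4HA1, a collagen prolyl hydroxylase subunit, had 132 and 65.7 CPM in homozygous, 76.6 and 73.3 CPM in hemizygous and 76.8 and 67.5 CPM in wild-type libraries. ADM, the vasodilator peptide adrenomedullin, had 15.4 and 7.95 CPM in homozygous, 24.4 and 9.20 CPM in hemizygous and 31.9 and 16.8 CPM in wild-type libraries. It did not follow this order, and its highest value was in wild-type replicate 1. Neither was homozygous replicate 1 the highest library for NDRG1, CA12, EGLN3, WSB1 or JMJD6. For VEGFA and ERO1A it was the highest, at 1.16-fold and 1.00-fold of the next library. The lactate exporter SLC16A3 (MCT4) had 74.1 and 24.5 CPM in homozygous, 16.7 and 26.9 CPM in hemizygous and 16.9 and 24.1 CPM in wild-type libraries. PFKFB4, which makes the allosteric activator of phosphofructokinase, had 30.0 and 10.9 CPM in homozygous, 12.8 and 10.6 CPM in hemizygous and 12.8 and 11.7 CPM in wild-type libraries. Both had their highest value in homozygous replicate 1.

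**Figure D2:**
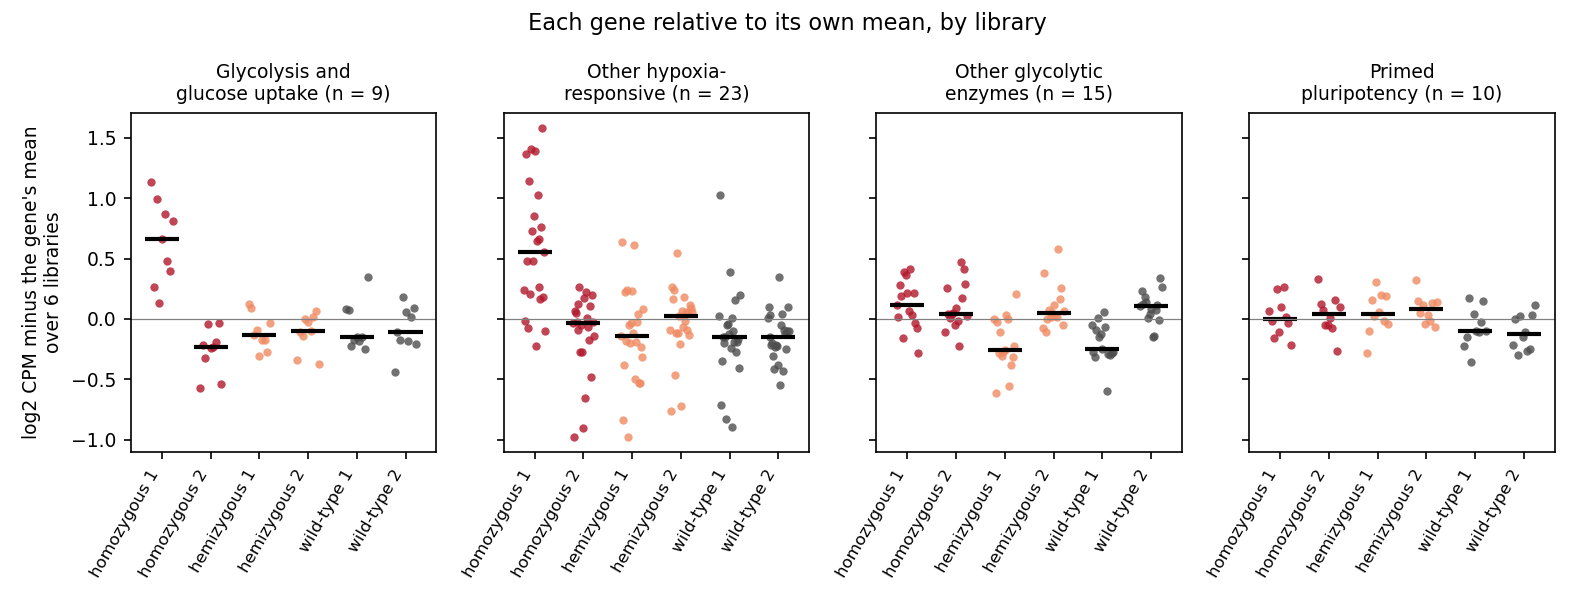
Log2 CPM of each gene minus that gene's mean over 6 libraries (y axis), by library (x axis, genotype and replicate number), for 4 gene lists, with points for genes and black lines for medians. The glycolysis and glucose uptake genes and the 23 other hypoxia-responsive genes are shifted up in homozygous replicate 1, by medians of 0.66 and 0.55, while the 15 other glycolytic enzymes had medians of 0.12 there and 0.11 in wild-type replicate 2.

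**Figure D3:**
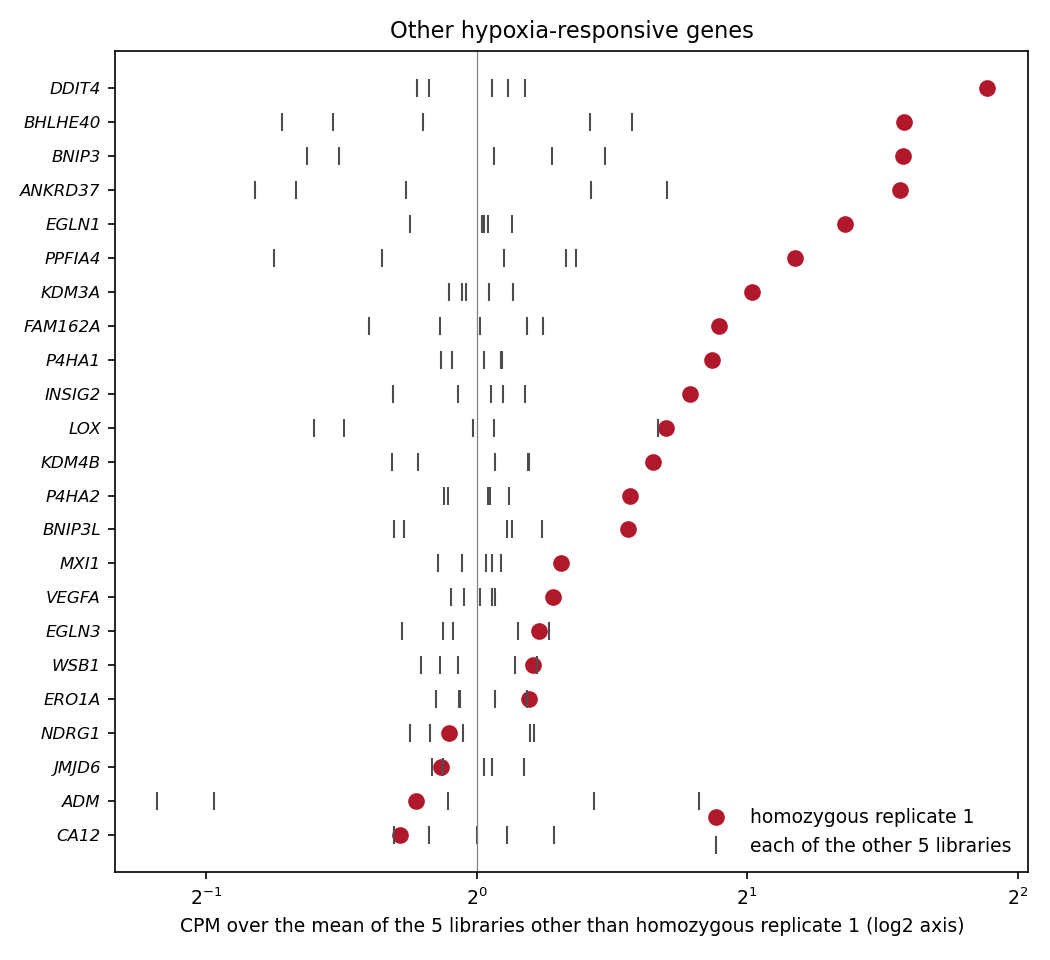
CPM of the 23 other hypoxia-responsive genes divided by the gene's mean over the 5 libraries other than homozygous replicate 1 (x axis, log scale), with red points for homozygous replicate 1 and ticks for each of those 5. DDIT4 lies farthest right at 3.70-fold, and for 17 of 23 genes the red point is to the right of all ticks.

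The genes of the HIF subunits differed in their pattern. HIF1A, the oxygen-regulated subunit of HIF-1, whose protein rather than transcript is the main point of control, had 308 and 223 CPM in homozygous, 344 and 254 CPM in hemizygous and 297 and 226 CPM in wild-type libraries. Its highest value was in hemizygous replicate 1, and replicate 1 was above replicate 2 in each genotype. EPAS1 (HIF-2 alpha) had 7.51 and 6.55 CPM in homozygous, 21.6 and 7.17 CPM in hemizygous and 22.9 and 9.18 CPM in wild-type libraries, highest in the wild-type and hemizygous replicate 1 libraries. ARNT, the common partner subunit, had 70.6 and 59.4 CPM in homozygous, 64.4 and 62.1 CPM in hemizygous and 66.1 and 63.6 CPM in wild-type libraries, with homozygous replicate 1 highest at 1.07-fold of the next library. VHL, which marks HIF subunits for destruction, had 75.5 and 78.4 CPM in homozygous, 86.9 and 75.0 CPM in hemizygous and 87.0 and 75.7 CPM in wild-type libraries. For VHL, as for EPAS1, the highest values were in the wild-type and hemizygous replicate 1 libraries.

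Isozymes of the same steps gave the following values, as examples chosen after their values were seen. HK1, the constitutive hexokinase, had 521 and 446 CPM in homozygous, 479 and 454 CPM in hemizygous and 464 and 517 CPM in wild-type libraries, so that homozygous replicate 1 was 1.10-fold of the mean of the other 5 libraries, against 2.29-fold for HK2. For the phosphofructokinases PFKL and PFKM the same ratio was 1.17 and 0.876, against 1.11 for PFKP. For the aldolase ALDOC it was 1.38, against 1.73 for ALDOA. ENO2, the neuron-type enolase, had 149 and 144 CPM in homozygous, 98.3 and 144 CPM in hemizygous and 105 and 139 CPM in wild-type libraries, a ratio of 1.18 against 1.49 for ENO1. Among the pyruvate dehydrogenase kinases the ratio was 1.91 for PDK1, 0.969 for PDK2 and 1.26 for PDK3. PGAM1, the mutase between PGK1 and ENO1, had a ratio of 1.41, and GAPDH, the dehydrogenase just before PGK1, one of 1.19. Of the 15 other glycolytic enzymes with a row, homozygous replicate 1 was the highest library for 9, against 14.7% of all genes. It was at least 1.5-fold above every other library for 0, against 0.302% of all genes. The ratio was nearer 1 for the isozyme than for HK2, ALDOA, ENO1 and PDK1, and not for the phosphofructokinases. These ratios carry no test.

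The comparison of homozygous with wild-type cells asks how S1344L in the homozygous state bears on these genes. None of the 9 passed the test, a Benjamini-Hochberg adjusted p under 0.05 over all 16199 genes by edgeR's quasi-likelihood test, and the share of all genes called was 0%. At an unadjusted p under 0.05 there were 0 of 9 genes and 435 of all genes, and DESeq2 called 10 genes of the table (0.0617%) and 0 of the 9. The fold changes of all 9 were above 0, with a median log2 value of 0.27, where the median of all genes was -0.0034. The largest were 0.68 (SE 0.38) for HK2, 0.67 (SE 0.51) for SLC2A1 and 0.61 (SE 0.32) for PGK1, each with an adjusted p of 1.00. Those of the other 6 lay between 0.033 (PFKP) and 0.33 (ALDOA). In no gene were both homozygous libraries above both wild-type libraries, a state found in 14.2% of all genes, and in none were both below, which held for 13.6%.

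These directions rested on homozygous replicate 1. Without it, 8 of the 9 values were below 0 and PKM alone was above, at 0.039. The log2 fold change of SLC2A1 became -0.42, that of PDK1 -0.64 and that of SLC2A3 -0.21. HK2 and PGK1 came to -0.12 and -0.046. This fit takes the lone homozygous library to vary as the other genotypes do. It also sets homozygous replicate 2 against both wild-type libraries, with no term for replicate number. SLC2A1, PDK1 and SLC2A3 were higher in replicate 1 in each genotype, which makes their values here more negative. Within replicate number 2, their homozygous minus wild-type differences were -0.13, -0.33 and -0.11. Within replicate number 1 the homozygous library was above the wild-type library for 9 of 9 genes, by a median of 0.65 on the log2 scale. Within number 2 it was below for 9 of 9, by a median of -0.15. The direction therefore did not hold across replicate numbers.

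**Figure D4:**
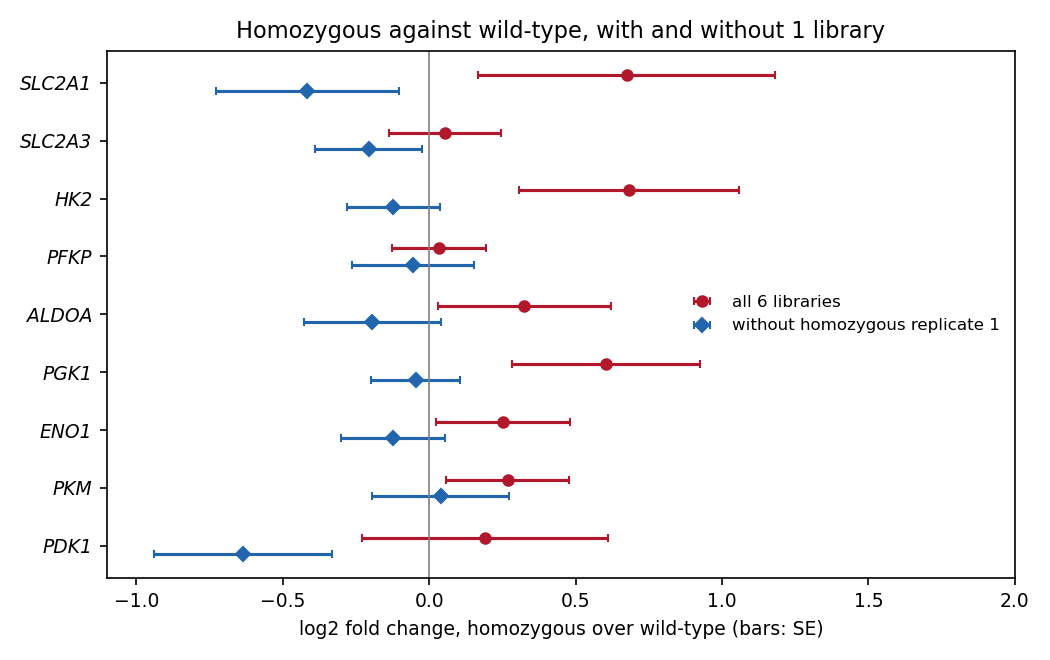
Log2 fold change of the 9 genes, homozygous over wild-type (x axis, bars show the standard error), with all 6 libraries (red circles) and without homozygous replicate 1 (blue diamonds). All 9 red circles lie above 0, up to 0.68 for HK2, and 8 of 9 blue diamonds below it, down to -0.64 for PDK1. The blue diamonds set homozygous replicate 2 against both wild-type libraries, with no term for replicate number.

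In hemizygous against wild-type cells the 9 genes had no shared direction. The log2 fold changes lay between -0.29 (SE 0.42, PDK1) and 0.066 (SE 0.51, SLC2A1), with 4 above and 5 below 0 and a median of -0.010. By edgeR 0 of the 9 were called, beside 0% of all genes, and 0 had an unadjusted p under 0.05, as 141 of all genes had. With the replicate number as a block, 1 gene of the table was called and still 0 of the 9, and DESeq2 called 7 (0.0432%) and 0 of the 9. HK2 and PGK1 had both hemizygous libraries above both wild-type libraries, which 8.13% of all genes had, by log2 values of 0.064 and 0.045. In neither gene did the difference pass the test, and no gene had both hemizygous libraries below both wild-type ones (9.21% of all genes). Leaving out each library in turn moved the value of SLC2A1 over -0.17 to 0.36 and that of PDK1 over -0.54 to 0.019. The sign of either thus turned with 1 library. These fits had no term for replicate number, and both genes were higher in replicate 1 in each genotype. Within replicate numbers 1 and 2, hemizygous minus wild-type was 0.0436 and 0.0995 for SLC2A1 and -0.39 and -0.17 for PDK1.

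The remaining genotype comparisons gave the same count of calls. For both mutant genotypes against wild-type, 7 of 9 log2 fold changes were above 0, the highest 0.37 (SE 0.33) for HK2 and 0.37 (SE 0.45) for SLC2A1. By edgeR 0 of 9 were called, beside 0% of all genes, and at an unadjusted p under 0.05 there were 0 of 9 and 314 of all genes. DESeq2 called 10 genes of the table and 0 of the 9. Without homozygous replicate 1 the values of HK2 and SLC2A1 were -0.029 and -0.17, in a fit with no term for replicate number. For homozygous against hemizygous cells all 9 were above 0, with SLC2A1 at 0.61 (SE 0.51), HK2 at 0.62 (SE 0.38), PGK1 at 0.56 (SE 0.32) and PDK1 at 0.48 (SE 0.42). Their adjusted p by edgeR was 0.999, 0 of 9 were called beside 0% of all genes, and 124 of all genes had an unadjusted p under 0.05. DESeq2 called 10 genes of the table here too, and the replicate block 1, with 0 of the 9 in either. Without homozygous replicate 1 the homozygous against hemizygous values were -0.48 for SLC2A1, -0.19 for HK2, -0.092 for PGK1 and -0.34 for PDK1. That fit, too, had no term for replicate number. Within replicate number 2 the differences were -0.23, -0.18, -0.13 and -0.16 in the same order. In neither comparison were the libraries of any of the 9 genes apart: 0 of 9 were higher in all mutant libraries than in both wild-type ones (4.29% of all genes) and 0 of 9 lower (4.58%). Likewise 0 of 9 were higher in both homozygous than in both hemizygous libraries (11.0% of all genes) and 0 of 9 lower (10.4%). In these comparisons the 3 genotypes share libraries, so that their values are not independent of each other.

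Between the replicate numbers, whose meaning the labels do not give, 2 of the genes were called. In a model with genotype and replicate number, SLC2A1 was higher in replicate 1 libraries by 0.89 on the log2 scale (SE 0.23, adjusted p = 0.0359 by edgeR's quasi-likelihood test). PDK1 was higher by 0.75 (SE 0.18, adjusted p = 0.0296 by the same test). These were 2 of 9, both higher in replicate 1, a share near the 20.5% of all genes called in either direction. Of all genes 12.0% were called higher. SLC2A3 stood at 0.29 with an adjusted p of 0.0600 by edgeR. DESeq2 put SLC2A3 at an adjusted p of 0.0200 and SLC2A1 at 0.0867, so that these calls depended on the tool. DESeq2 called 19.6% of all genes here. In SLC2A1, SLC2A3 and PDK1 replicate 1 was above replicate 2 in all 3 genotypes, as in 29.9% of all genes. In 0 of 9 genes was it below in all 3, as it was in 28.3%.

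The size of that difference was not the same in each genotype. For SLC2A1 replicate 1 exceeded replicate 2 by 1.70 on the log2 scale in homozygous, 0.46 in hemizygous and 0.52 in wild-type cells, and for PDK1 by 1.35, 0.34 and 0.56 in the same order. HK2 differed by 1.32 in homozygous, 0.0051 in hemizygous and -0.051 in wild-type cells, and PGK1 by 1.10, -0.073 and -0.0045. In ALDOA, ENO1, PKM and PFKP replicate 1 was above replicate 2 in homozygous cells and below it in both other genotypes. Without homozygous replicate 1, SLC2A1 (0.49, adjusted p = 0.00146 by edgeR) and PDK1 (0.45, adjusted p = 0.00307) were still called, and PKM was called lower in replicate 1 (-0.34, adjusted p = 0.0137), where 38.7% of all genes were called. The calls were lost without either hemizygous library, where the differences were larger. Without hemizygous replicate 1 there were 0 calls among the 9 and 1 in the table, and without hemizygous replicate 2 there were 0 and 3. SLC2A1 then had a log2 difference of 1.10 and 1.11, and PDK1 0.94 and 0.95, all larger than with all libraries. The adjusted p of SLC2A1 was 0.165 and 0.0815 by edgeR, and that of PDK1 0.161 and 0.0780. The table's count was 6254 without homozygous replicate 2, 1140 without wild-type replicate 1 and 1077 without wild-type replicate 2, against 3322 with all libraries. Among the 9 genes it was 3 without homozygous replicate 2 and 2 without either wild-type library.

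**Figure D5:**
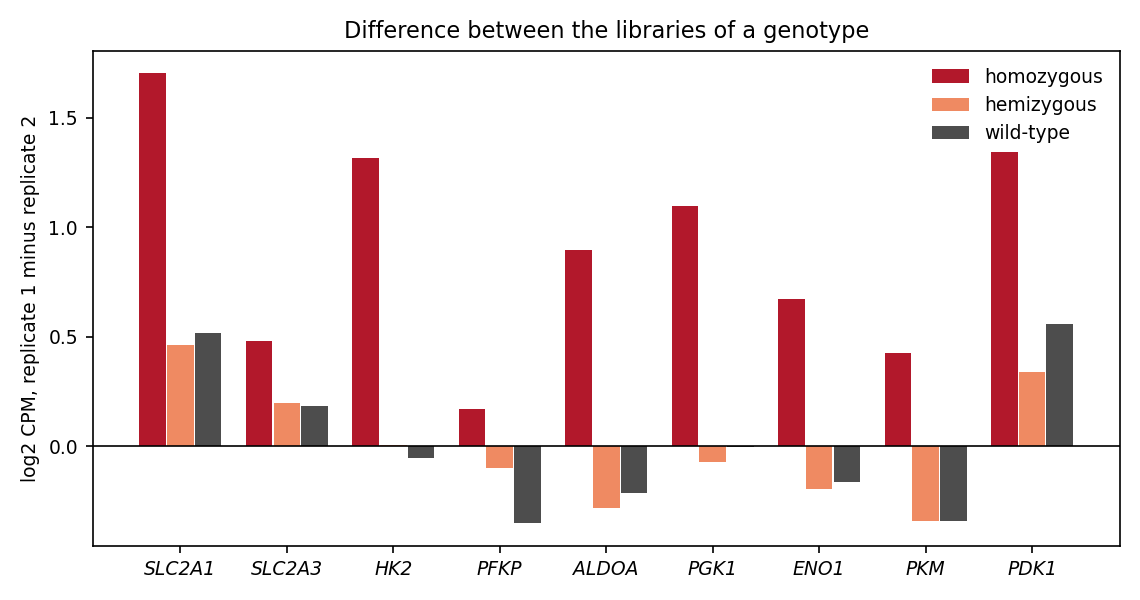
Log2 CPM of replicate 1 minus replicate 2 (y axis) for the 9 genes, with bars for homozygous, hemizygous and wild-type cells. The homozygous bar is above 0 for all 9 genes, from 0.17 for PFKP to 1.70 for SLC2A1, and in SLC2A1, SLC2A3 and PDK1 the hemizygous and wild-type bars are above 0 as well.

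In the pathways around the 9 genes, edgeR called 0 genes in any genotype comparison on the lists of other glycolytic enzymes (15 measured), glucose and lactate carriers (8), control of flux and pyruvate entry (17), other hypoxia-responsive genes (23), the hypoxia pathway (12), the pentose phosphate pathway (7), gluconeogenesis (3) and regulators of PKM splicing with MYC (8). DESeq2 called 0 genes on these lists in the genotype comparisons. In homozygous against wild-type cells 19 of 23 hypoxia-responsive genes had a log2 fold change above 0 (median 0.43), where 49.3% of all genes did. An unadjusted p under 0.05 was found for 5 of the 23 and for 2.69% of all genes. Without homozygous replicate 1, 14 of 23 were above 0, with a median of 0.092, and 0 had an unadjusted p under 0.05. Of the other glycolytic enzymes 12 of 15 were above 0, with a median of 0.22, and 10 of 15 without that library, with a median of 0.12. Without it, the fit sets homozygous replicate 2 against both wild-type libraries, with no term for replicate number. Within replicate number 2, homozygous was above wild-type for 7 of 15 of these enzymes, with a median of -0.049. For the hypoxia-responsive genes it was above for 11 of 23, with a median of -0.033. The other lists had medians between -0.016 and 0.070 in homozygous against wild-type cells with all 6 libraries.

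Those with the smallest unadjusted p on each list were the following, none with an adjusted p under 0.99 by edgeR. ANKRD37, an ankyrin repeat gene induced by HIF, had a log2 fold change of 1.56 (SE 0.60) in homozygous against wild-type cells, and PPFIA4, a liprin, one of 1.09 (SE 0.39). Without homozygous replicate 1 these were 0.88 and 0.63. The mean level of ANKRD37 over the 6 libraries was not above 5 CPM. SLC16A3 had 1.27 (SE 0.51) and the transporter SLC2A12 -0.55 (SE 0.26) in the same comparison, against 0.26 and -0.43 without that library. PDP1, the phosphatase that reverses the action of the pyruvate dehydrogenase kinases, had -1.33 (SE 0.64), and EPAS1 -1.19 (SE 0.59), against -1.38 and -1.29 without it. The fit without it sets homozygous replicate 2 against both libraries of the other genotype, with no term for replicate number. Within replicate number 2, homozygous minus wild-type was only -0.24 for PDP1 and -0.49 for EPAS1. The same difference was 0.65 for ANKRD37, 0.27 for PPFIA4, 0.026 for SLC16A3 and -0.22 for SLC2A12. In homozygous against hemizygous cells PFKFB4 had 0.81 (SE 0.43), the aldolase ALDOC 0.36 (SE 0.18), the isomerase TPI1 0.28 (SE 0.19) and ARNT2, a paralog of ARNT, -0.43 (SE 0.26). With homozygous replicate 1 left out PFKFB4 had -0.10, ALDOC 0.18, TPI1 0.059 and ARNT2 -0.59. Homozygous minus hemizygous within replicate number 2 was 0.041, 0.026, -0.096 and -0.27 in the same order. On the smaller lists, the pentose phosphate enzymes TALDO1 and PGLS had 0.19 (SE 0.16) in homozygous against hemizygous cells and -0.18 (SE 0.20) in both mutants against wild-type. Pyruvate carboxylase (PC) had 0.20 (SE 0.17) in homozygous against wild-type, and fructose bisphosphatase (FBP1) -0.23 (SE 0.23) in homozygous against hemizygous cells. MYCN had -0.33 (SE 0.18) in homozygous and its dimer partner MAX -0.15 (SE 0.14) in hemizygous against wild-type cells. With homozygous replicate 1 left out TALDO1 had 0.24, PGLS -0.19, PC 0.12, FBP1 -0.18, MYCN -0.24 and MAX -0.15. None of these passed the test.

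Between replicate numbers 25 of the 118 measured genes on these lists and the cell type lists were called by edgeR, or 21.2%, close to the 20.5% of all genes. The genes are named as a description. Higher in replicate 1 were the sugar carriers SLC2A13 and SLC2A14 and the monocarboxylate carrier SLC16A7. So were PFKFB3, PDP1, PDPR, DLAT and DLD, which act on phosphofructokinase or the pyruvate dehydrogenase complex, and HIF1A, EPAS1, ARNT2 and CUL2 of the hypoxia pathway. The hypoxia-responsive genes ADM, BHLHE40 and LOX, the transcription factor MYC and the stromal genes COL1A1 and POSTN were also higher. Lower in replicate 1 were PGAM2, ENO3 and LDHB among the enzymes, SLC2A10, the VHL complex subunits ELOB and RBX1, and MLXIPL, a glucose-sensing transcription factor. PGAM2 had only 45 to 136 counts in a library. The calls depended in part on the tool. DESeq2 did not call PGAM2, SLC2A10 or PDP1, and it called ENO2, PFKFB4, TXNIP, HIF3A, L1TD1 and ZIC2, which edgeR did not. With hemizygous replicate 1 left out the number of edgeR calls was 0, and without hemizygous replicate 2 it was also 0. It was 57 without either homozygous library, 10 without wild-type replicate 1 and 8 without wild-type replicate 2. Stromal markers had 7 of 10 genes with a row and a summed level of 1356 and 1396 CPM in homozygous, 1464 and 1453 CPM in hemizygous and 1546 and 1475 CPM in wild-type libraries. Relative to each gene's own mean, their median log2 level was -0.23 and -0.26 in homozygous, 0.36 and -0.12 in hemizygous and 0.35 and 0.046 in wild-type libraries. Their part in the replicate difference was not tested.

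The profile of the 9 genes, taken as the median over genes of the centred log2 CPM in each library, was set against every other gene with a mean above 5 CPM, 11668 in all. The 5 most alike by Pearson's r over the 6 libraries were CCT3 (r = 0.997), a chaperonin subunit, ING1 (0.991), a chromatin reader, DDIT4 (0.986), CEP295 (0.982), a centriole protein, and KDM3A (0.980). These values describe 6 libraries that share genotypes and replicate numbers, and 1 of the libraries sets most of the profile. Likeness of shape was not likeness of size. CCT3 had 521 CPM in homozygous replicate 1 against 434 to 452 CPM in the others, 1.17-fold of their mean. The same ratio was 1.11 for ING1 and 1.09 for CEP295, and 3.70 for DDIT4 and 2.03 for KDM3A. Only DDIT4 and KDM3A of these 5 were on the hypoxia-responsive list.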

How the data were processed

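The authors deposited whole-number read counts per gene for 6 Ago2 iCLIP libraries, with no normalization, and 0 columns were left unused. Reads were placed on hg38, per the submitters' processing notes. For the aligner, the counter, the annotation and strand, the sources used here give nothing. The 9 genes and the lists were chosen with earlier results of these data known.

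Here the counts were scaled by TMM, and filterByExpr removed none of the 16199 rows. Tests used quasi-likelihood fits in edgeR 4.0.16 (R 4.3.3), with 1 mean per genotype over all 6 libraries. The replicate contrast used genotype plus replicate number. P-values were adjusted over all genes. Centred log2 CPM used a prior count of 2. The steps were tested on simulated data.

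Named genes were the 9, SLC2A14, HIF1A, EPAS1, ARNT, VHL, DICER1, AGO2, list genes that were called or else the 2 with the smallest p per list, and the 5 most alike. Cell type lists named by that rule POU5F1 (0.42), PDGFRB (-0.85) and FABP7 (1.20) in homozygous against wild-type, L1TD1 (0.28), THY1 (-0.30) and KDR (0.46) in both mutants, and ZIC1 (1.54) and MIXL1 (0.30) in hemizygous against wild-type (log2 fold changes, none called by edgeR).

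The genotype tests left the replicate number out, and a fit with it as a block was an alternative. The numbers were taken to pair libraries in that fit because differences between replicate 1 and 2 correlated across genes, at r = 0.48 for homozygous with hemizygous, 0.36 for homozygous with wild-type and 0.74 for hemizygous with wild-type. The labels state no pairing. Control IgG pull-downs were not used here. Each result was recomputed with DESeq2 1.42.0 and limma-voom (limma 3.58.1), with scaling by RLE, by upper quartile or by library size, and without a filter or with at least 20 counts required in 2 libraries. Other fits used the replicate block, only the groups compared, or all libraries but 1. Scaling alternatives for the homozygous replicate 1 counts were added after seeing the data.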

Additional observations from a re-analysis of the deposited data

Results flagged for a closer look

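The 9 genes differed between homozygous and wild-type cells in opposite directions at the 2 replicate numbers. At number 1 the homozygous library was higher for 9 of 9 genes, by a median of 0.65 on the log2 scale, and at number 2 it was lower for 9 of 9, by a median of -0.15. Against hemizygous cells the medians were 0.84 at number 1, with 9 of 9 higher, and -0.16 at number 2, with 9 of 9 lower. Each number holds 1 library of a genotype, and the difference between the numbers was not tested.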

How the results depend on the processing

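RLE and upper-quartile scaling, no filter, the stricter filter, limma-voom and the fit on only the groups compared moved no count of calls by over 1.5 times and turned no sign among the 9 genes. With library-size scaling the log2 fold change of SLC2A3 in hemizygous against wild-type cells was -0.0021, against 0.011. DESeq2 called 7 genes in hemizygous, 10 in homozygous and 10 in both mutants against wild-type, and 10 in homozygous against hemizygous cells, where edgeR called 0. On the lists it called 1 gene in hemizygous and 1 in both mutants against wild-type, the neuroectoderm gene ZIC1 in both cases (log2 fold changes 1.55 and 1.13). The replicate number as a block gave 1 call in hemizygous against wild-type and 1 in homozygous against hemizygous cells, and changed no other call. Leaving out each library in turn gave 0 to 2 calls in hemizygous, 0 to 1 in homozygous and 0 to 2 in both mutants against wild-type, and 0 to 3 in homozygous against hemizygous cells. Without hemizygous replicate 1 these were 2 in hemizygous and 1 in homozygous against wild-type and 3 in homozygous against hemizygous cells. Without hemizygous replicate 2 they were 2 in hemizygous and 1 in both mutants against wild-type, and without wild-type replicate 1 they were 1 in hemizygous, 1 in homozygous and 2 in both mutants. Between replicate numbers it gave 1 to 6266 calls, 0 to 3 among the 9 genes and 0 to 57 on the lists. The genotype fits with a library left out had no term for replicate number. They can therefore compare unequal shares of replicate 1 and replicate 2 libraries. The log2 fold changes whose sign turned with a library left out had these ranges, lowest to highest. In hemizygous against wild-type cells these were SLC2A1 -0.17 to 0.36, SLC2A3 -0.083 to 0.11, PFKP -0.22 to 0.14, ALDOA -0.26 to 0.029 and ENO1 -0.11 to 0.091. The others there were PKM -0.20 to 0.17 and PDK1 -0.54 to 0.019. In homozygous against wild-type cells they were SLC2A1 -0.42 to 1.29, SLC2A3 -0.21 to 0.27, HK2 -0.12 to 1.20, PFKP -0.12 to 0.23 and ALDOA -0.19 to 0.71. The rest were PGK1 -0.046 to 1.05, ENO1 -0.12 to 0.55 and PDK1 -0.64 to 0.71. For both mutants against wild-type they came to SLC2A1 -0.17 to 0.68, SLC2A3 -0.098 to 0.14, HK2 -0.029 to 0.63, PFKP -0.17 to 0.18 and ALDOA -0.15 to 0.30. Added to these were PGK1 -0.00065 to 0.55, ENO1 -0.067 to 0.27, PKM -0.031 to 0.31 and PDK1 -0.46 to 0.26. Homozygous against hemizygous cells gave SLC2A1 -0.48 to 1.22, SLC2A3 -0.22 to 0.26, HK2 -0.19 to 1.13, ALDOA -0.082 to 0.82 and PGK1 -0.092 to 1.01. To these came ENO1 -0.11 to 0.56 and PDK1 -0.34 to 1.01. Between replicate numbers the ranges were HK2 -0.023 to 0.65, PFKP -0.22 to 0.025, ALDOA -0.25 to 0.34, PGK1 -0.039 to 0.55 and ENO1 -0.18 to 0.25. Beside them stood PKM -0.34 to 0.043. The causes were not tested. What depth or the number of libraries did to the count of calls was not tested.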

Other observations

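Genes were also ranked by how far homozygous replicate 1 stood above the highest of the other 5 libraries, among 11677 genes. Of the 15 at the top, 3 were glycolysis or glucose uptake genes (HK2, SLC2A1 and PGK1), 6 were on the hypoxia-responsive list, 1 was a lactate carrier (SLC16A3), 1 controls flux (PFKFB4) and 4 were on no list. All were named after their values were seen. The glycolysis and glucose uptake genes and the hypoxia-responsive list held 9 and 23 of the 16199 genes of the table. Both were chosen with earlier results of these data known. The ranking rests on the same excess of homozygous replicate 1 as described above. EGR1, an immediate early transcription factor, ranked first, with 17.1 and 3.00 CPM in homozygous, 1.75 and 3.81 CPM in hemizygous and 2.02 and 3.97 CPM in wild-type libraries. FOS, another immediate early gene, had 18.1 and 5.64 CPM in homozygous, 4.62 and 6.36 CPM in hemizygous and 4.80 and 5.96 CPM in wild-type libraries. Both were thus high in the same library as the glucose genes.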
